A study of Mus musculus with 10 samples.

Results

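The mitochondrial ribosomal protein genes were examined in the hippocampus of Dp3Yah mice, in which a single member, Mrpl39, lies in the duplicated interval. Members were every gene whose RefSeq symbol consists of Mrpl (large subunit) or Mrps (small subunit), a number and at most 1 further letter. This rule uses names and no measured value, although members were chosen with earlier results of these data known. The rule found 77 of the 19939 genes with a probe set of their own, namely 48 large-subunit genes (Mrpl39 and 47 others) and 29 genes with an Mrps symbol, called small-subunit genes here by their symbol. Of the 29, Mrps18a and Mrps30 encode proteins that sit in the large subunit, and Mrps36 is known as a component of the 2-oxoglutarate dehydrogenase complex and was given no place in the ribosome. RefSeq lists 78 genes by this rule, and the remaining gene, Mrpl53, was read only by a probe set shared with Ccdc142, which did not enter the counts (log2 change -0.06, adjusted p = 0.977 in limma). The measured members are spread over 17 chromosomes, with 3 of them on chromosome 16.

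The tested mice were 5 Dp3Yah males (noted Dp3Yah), in which the stretch of mouse chromosome 16 between Hspa13 and App is duplicated, and they were set against 5 control males that the study describes as littermates. All 10 mice were 16 weeks old and of C57BL/6N background per the labels, whereas the methods of the study describe backcrossing of this line towards C57BL/6J. Total RNA from the whole hippocampus of each mouse was hybridised to 1 Affymetrix Mouse Gene 1.0 ST array, and the values, deposited as log2, are the output of RMA (background correction, normalisation to a common distribution and summary of the probes of each probe set). The methods state that App, at the distal breakpoint, is expressed from no more than 2 complete copies, so Gabpa was taken here as the last gene in 3 copies. The question of this comparison is how the hippocampus expresses genes in 3 copies and genes in 2 copies, here the subunits of a single particle of which 1 gene is in 3 copies.

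Mitochondria carry their own ribosome, which makes the few proteins encoded by mitochondrial DNA, all of them subunits of the respiratory chain and ATP synthase. Its RNAs come from mitochondrial DNA, while every one of its proteins is encoded in the nucleus, made in the cytosol and imported. Many of these proteins have a counterpart in the bacterial ribosome, others are found only in mitochondria, and inherited defects in several of them cause mitochondrial disease in humans. Neurons depend strongly on respiration, so that mitochondrial translation is active in brain tissue. In whole tissue, a change in the number of cells of a type and a change in RNA per cell cannot be told apart.

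The array medians lay between 5.64 and 5.71, and the median SD of a gene within its group was 0.087 on the log2 scale. All 8 neuron markers were above the median level of all genes, with mean levels of 10.01 in Dp3Yah and 10.04 in control. Of these markers, 5 had a positive and 3 a negative change (median 0.02). C1ql2, a marker of dentate granule cells, had a log2 change of -0.24 (adjusted p = 0.708 in limma). Every Dp3Yah mouse was below every control for C1ql2, which held for 0.391% of all genes. Prox1, another marker of these cells, had -0.18 with overlapping groups (adjusted p = 0.922 in limma). The part of these markers in the results was not tested. Choroid plexus markers come from tissue attached to the hippocampus. The mean of the 6 measured ones ranged from 6.33 to 8.01 over Dp3Yah mice and from 6.14 to 8.19 over control mice. Ttr alone ranged from 9.37 to 13.40 in Dp3Yah mice and from 8.99 to 13.33 in control mice. Both groups thus held rich and poor dissections. The mean level of the 5 microglia markers was 7.86 ± 0.10 in Dp3Yah and 7.77 ± 0.03 in control (SD, n = 5 each) with overlapping groups. All 5 had a positive change (median 0.09). The 5 astrocyte markers averaged 9.37 ± 0.06 in Dp3Yah and 9.31 ± 0.07 in control, again with overlapping groups. All 5 of these also had a positive change (median 0.05). Of 4 oligodendrocyte markers, 2 had a positive change. The part of these glial markers in the results was likewise not tested. Dp3Yah replicate 2 stood apart from the other mice, with the lowest array weight (0.478) and the lowest mean over all genes.

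Over all genes, 3 of 19939 passed the threshold of limma (Benjamini-Hochberg adjusted p under 0.05), a share of 0.015%. They were Mrpl39, Hspa13 and Ncam2 (the last pair named after their values were seen), and all lie in the duplicated interval. Thus 1 of the 77 members was called, and it was the member in 3 copies.

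Mrpl39 lies at chr16:84718281-84735244 on the minus strand (GRCm38.p6), near the distal end of the interval, which spans 9.11 Mb from Hspa13 to Gabpa. The other members on chromosome 16 are outside it: Mrpl40 lies 56.88 Mb away and Mrps6 lies 7.19 Mb away. Mrps6 is homologous to a gene on human chromosome 21, as Mrpl39 is, but is present in 2 copies in both groups. The region that starts Mrpl39 transcription is shown first because this is the member whose dose differs. That of Mrps11 follows. Mrps11 shares part of its start region with Mrpl46, the member with the next largest change. Each window runs from 250 bases before to 50 bases after the RefSeq start site, and capitals mark a match to a motif of the transcription factor NRF1 (GCGC, any base, then TGCGC) or YY1 (AAGATGGCG), read on either strand.
Mrpl39, chr16:84735195-84735494, minus strand: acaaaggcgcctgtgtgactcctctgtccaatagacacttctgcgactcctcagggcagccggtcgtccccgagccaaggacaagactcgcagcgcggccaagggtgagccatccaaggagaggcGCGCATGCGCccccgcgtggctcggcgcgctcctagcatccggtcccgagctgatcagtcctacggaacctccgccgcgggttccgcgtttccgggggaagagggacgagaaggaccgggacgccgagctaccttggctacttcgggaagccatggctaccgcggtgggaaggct
Mrps11, chr7:78782881-78783180, plus strand: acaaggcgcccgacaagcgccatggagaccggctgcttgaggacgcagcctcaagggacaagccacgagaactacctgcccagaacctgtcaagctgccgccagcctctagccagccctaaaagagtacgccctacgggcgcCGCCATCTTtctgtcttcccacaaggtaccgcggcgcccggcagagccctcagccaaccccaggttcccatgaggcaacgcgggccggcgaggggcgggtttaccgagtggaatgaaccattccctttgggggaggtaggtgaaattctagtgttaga
The NRF1-type match of Mrpl39 begins 125 bases before its start. Mrpl46 and Mrps11 are transcribed away from each other, their annotated ends lie 41 bases apart, and their windows overlap by 141 bases. The YY1-type match of Mrps11 begins 108 bases before its start and lies outside this overlap. The window of Mrpl46 held no NRF1- or YY1-type match.

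Mrpl39, a protein of the large subunit with no bacterial counterpart, was at 9.46, 9.42, 9.58, 9.44 and 9.61 in the 5 Dp3Yah mice, against 9.00, 9.07, 9.02, 9.02 and 9.02 in the 5 control mice. Every Dp3Yah mouse was above every control, which held for 0.522% of all genes. The mean was 9.50 ± 0.09 in Dp3Yah and 9.03 ± 0.03 in control (SD, n = 5 each). The log2 change was 0.48 (SE 0.046, 95% interval 0.38 to 0.58), which is 1.39-fold (1.30 to 1.49), with an adjusted p of 0.00336 in limma. Its p was the smallest of all genes tested. The upper end of the interval lay just under the 1.5-fold ratio of 3 copies to 2. Only 4 genes had a change larger in size (0.0201% of all genes). They were the interval genes Hspa13, Ncam2 and Jam2, which were higher, and the small heat shock gene Hspb1, with a change of -0.48. For Hspb1 the groups overlapped, and the adjusted p was 0.922 in limma. An exact two-sided permutation test of the 10 values of Mrpl39 gave p = 0.00794. It is the smallest p that 252 assignments allow (0.0159 after adjustment over the 4 genes tested this way).

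**Figure D1:**
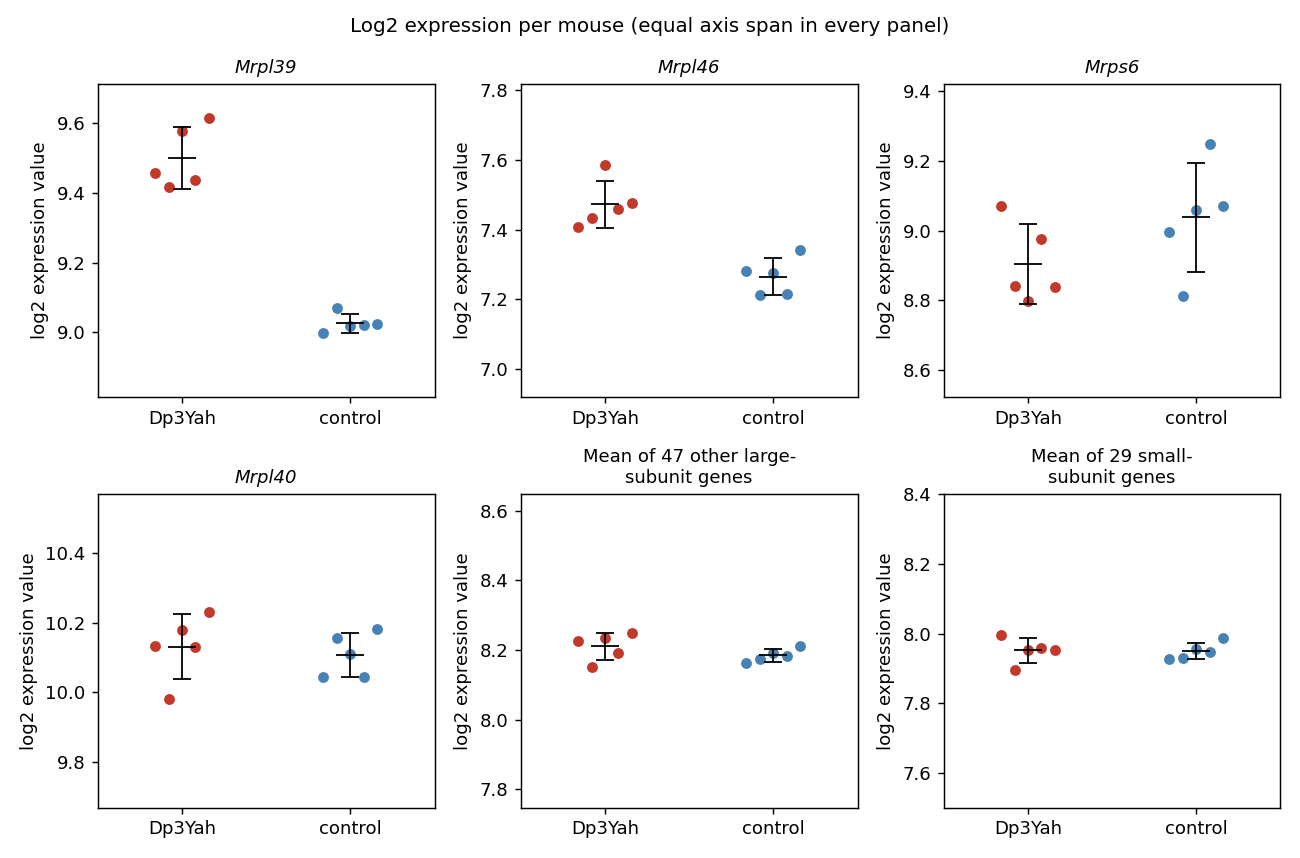
Log2 expression values in each Dp3Yah mouse (red) and each control mouse (blue) for Mrpl39, Mrpl46, Mrps6 and Mrpl40, and for the mean of the 47 other large-subunit genes and of the 29 small-subunit genes; bars give the mean and SD of 5 mice, and every panel spans the same log2 range. The groups are separate for Mrpl39 and Mrpl46 and overlap in the other 4 panels.

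Set against the rest of its subunit in the same mouse, Mrpl39 exceeded the mean of the 47 other large-subunit genes by 1.23, 1.27, 1.35, 1.25 and 1.37 in the Dp3Yah mice, against 0.84, 0.90, 0.83, 0.84 and 0.81 in the control mice. The groups did not overlap, and the difference between their means was 0.45 on the log2 scale. The partner genes themselves averaged 8.21 ± 0.04 in Dp3Yah and 8.18 ± 0.02 in control, and the small-subunit genes averaged 7.95 ± 0.04 in Dp3Yah and 7.95 ± 0.02 in control (SD, n = 5 each). Values of different probe sets are not comparable as amounts of RNA, so only the difference between groups can be read from these numbers.

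Mrpl46, a protein of the central protuberance of the large subunit, was at 7.41, 7.43, 7.58, 7.46 and 7.48 in Dp3Yah mice, against 7.28, 7.21, 7.27, 7.22 and 7.34 in control mice. Every Dp3Yah mouse was again above every control, which held for 0.522% of all genes. The log2 change was 0.21 (SE 0.044, 95% interval 0.11 to 0.30, 1.15-fold), and the adjusted p over all genes was 0.708 in limma. The exact permutation test gave p = 0.00794 (0.0159 adjusted over 4 genes), the smallest that 252 assignments allow. Any gene whose groups do not overlap gives this p, so it adds nothing to that separation. The adjustment over 4 genes leaves out the other members, and only the adjusted p of 0.708 in limma covers all genes. Its neighbour Mrps11, a protein of the small subunit, was at 7.47, 7.38, 7.42, 7.31 and 7.38 in Dp3Yah mice, against 7.36, 7.36, 7.33, 7.37 and 7.37 in control mice, and the groups overlapped (log2 change 0.03, SE 0.039, adjusted p = 0.956 in limma, exact permutation p = 0.262). The excess of Mrpl46 over Mrps11 was 0.08 ± 0.09 in Dp3Yah and -0.09 ± 0.06 in control (SD, n = 5 each). This pair was chosen with the change of Mrpl46 known, so the difference of 0.17 between the groups is a description.

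Mrps6, a small-subunit protein, was at 9.07, 8.84, 8.80, 8.98 and 8.84 in Dp3Yah mice, against 9.00, 8.81, 9.06, 9.25 and 9.07 in control mice. The groups overlapped, and the log2 change of -0.13 had a 95% interval of -0.30 to 0.03 (adjusted p = 0.922 in limma, exact permutation p = 0.19). The change of Mrpl39 exceeded that of Mrps6 by 0.61 and that of Mrpl46 by 0.27 on the log2 scale. Each difference had p = 0.00794 in the exact permutation test (0.0119 adjusted over 3 pairs of genes, that of Mrpl46 and Mrps11 included). This is the smallest p that 252 assignments allow, so it adds nothing to the separation of the groups in these differences. Mrpl40, another protein of the central protuberance, was at 10.13, 9.98, 10.18, 10.13 and 10.23 in Dp3Yah mice, against 10.04, 10.15, 10.11, 10.05 and 10.18 in control mice. Its log2 change was 0.02 with a 95% interval of -0.09 to 0.14, which ended below that of Mrpl39.

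Of the 77 members, 7 had an unadjusted p under 0.05 in limma, a result found for 5.08% of all genes. Of these 7, 6 had a positive change (2.49% of all genes) and 1 a negative change (2.59% of all genes). A rank test was run on the fold changes between all 25 pairs of mice, the kind of test that the methods name. It passed 5 members as higher (2.54% of all genes), namely Mrpl39, Mrpl46, Mrpl47, Mrps17 and Mrps18c, and 0 as lower (2.05% of all genes). Its value is the place of a gene in the spread of all genes, so its thresholds largely set the share that passes. The large-subunit genes other than Mrpl39 with an unadjusted p under 0.05 in limma were Mrpl46, Mrpl47 and Mrpl13, with positive changes, and Mrpl34, with a negative change. Mrpl34, the counterpart of a small bacterial large-subunit protein, was at 9.54, 9.49, 9.52, 9.50 and 9.53 in Dp3Yah mice, against 9.60, 9.58, 9.65, 9.71 and 9.65 in control mice. It was the only member with every Dp3Yah mouse below every control, which held for 0.391% of all genes, and its log2 change was -0.12 (SE 0.038, adjusted p = 0.922 in limma).

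Mrpl47, whose bacterial counterpart sits near the exit of the peptide tunnel, was at 6.77, 6.92, 6.84, 6.71 and 7.05 in Dp3Yah mice, against 6.57, 6.68, 6.65, 6.68 and 6.75 in control mice, with 4 of 5 Dp3Yah mice above every control (log2 change 0.19, SE 0.063, adjusted p = 0.922 in limma). A probe set of lower signal for the same gene showed no such difference (log2 change -0.03). The share of all genes with 4 of 5 Dp3Yah mice above every control was not counted, here or for the genes below. Mrpl13 had a log2 change of 0.13 (SE 0.051), and its groups overlapped. In the small subunit, Mrps17 had a log2 change of 0.15 (SE 0.052) and Mrps18c, which is 1 of 3 related genes of the S18 family, a log2 change of 0.14 (SE 0.049), both with an adjusted p of 0.922 in limma. Mrps18c was at 8.94, 8.86, 8.83, 8.80 and 8.98 in Dp3Yah mice, against 8.72, 8.81, 8.73, 8.65 and 8.83 in control mice, with 4 of 5 Dp3Yah mice above every control. Its relatives Mrps18a and Mrps18b had log2 changes of 0.05 and 0.02.

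**Figure D2:**
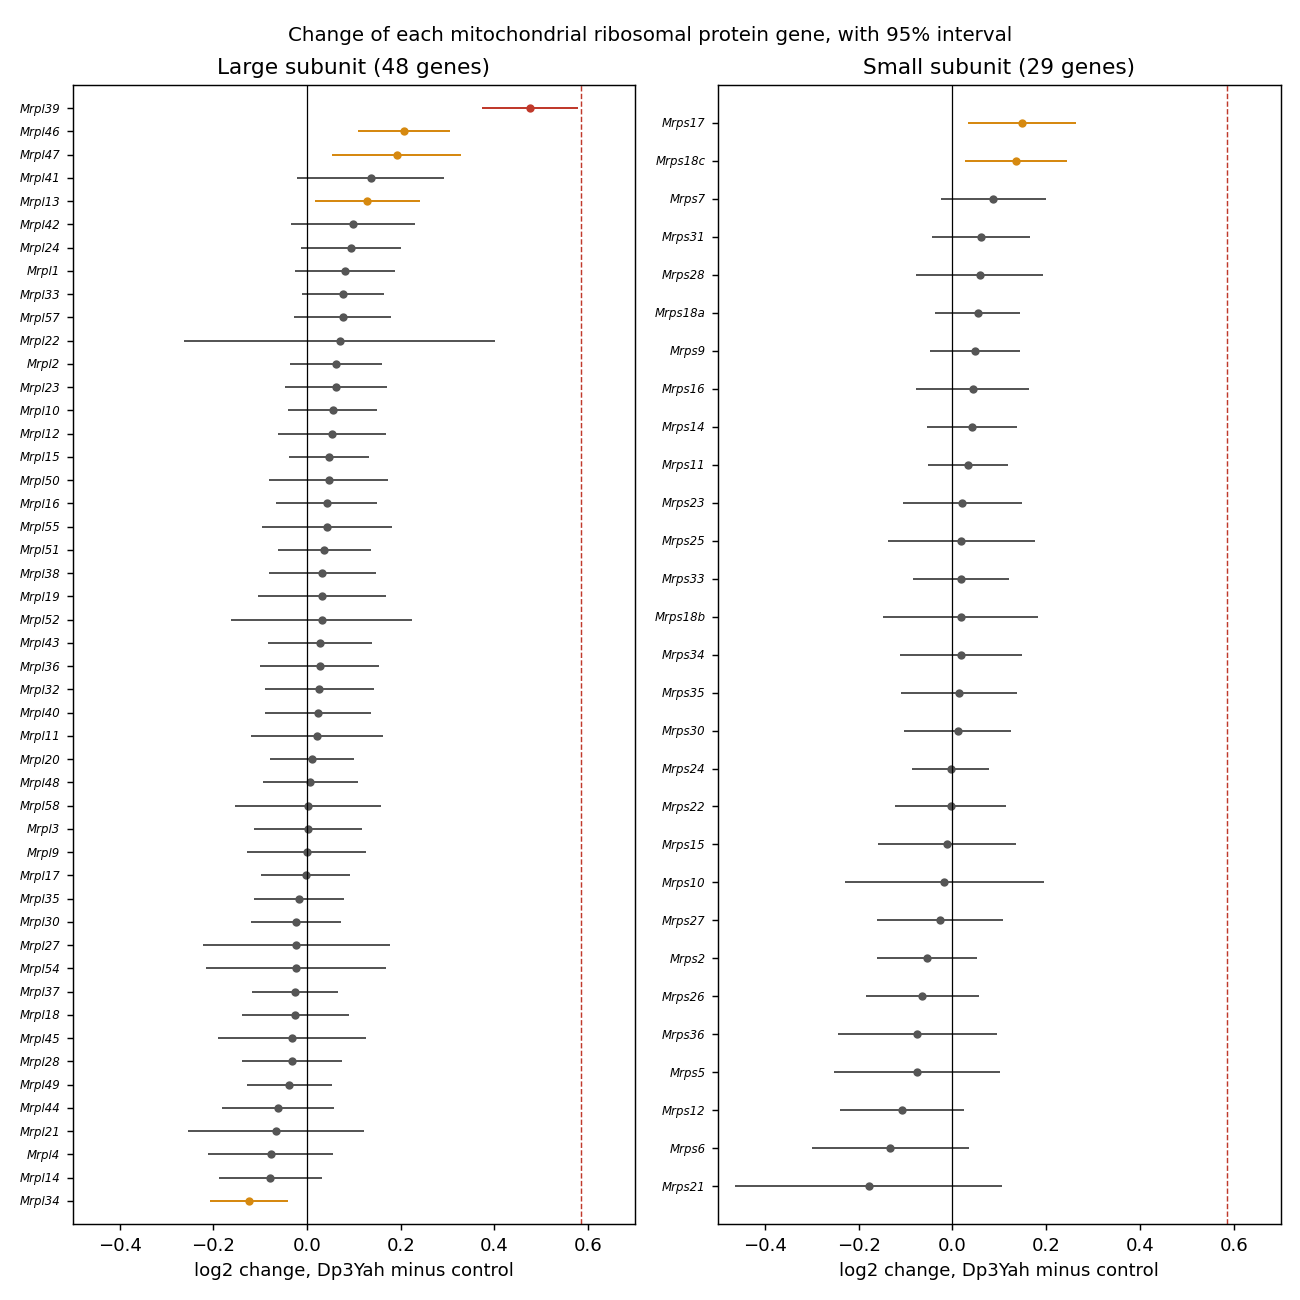
Log2 change (Dp3Yah minus control, horizontal axis) of each large-subunit gene (left) and each small-subunit gene (right) with its 95% interval in limma, ordered by size; red marks Mrpl39, orange an unadjusted p under 0.05, and the dashed line the 1.5-fold ratio of 3 copies to 2. Mrpl39 alone lies near the dashed line, and the other members lie between -0.18 and 0.21.

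The 47 other large-subunit genes had a median log2 change of 0.03 (range -0.12 to 0.21), with 31 positive, and none was called over all genes. The 29 small-subunit genes had a median of 0.02 (range -0.18 to 0.15), with 17 positive and likewise none called, although 2 had an unadjusted p under 0.05 in limma. Over all genes the median was -0.005, and 46.8% of changes were positive. A log2 change smaller than 0.1 in size was found for 42 of the 47 and for 24 of the 29, and for 87.2% of all genes. The most negative values among the small-subunit genes were those of Mrps21, Mrps6 and Mrps12 (-0.18, -0.13 and -0.11), none of which passed an unadjusted p of 0.05. The 95% intervals of all 77 members ended below a 1.5-fold increase, that of Mrpl39 by a small margin.

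**Figure D3:**
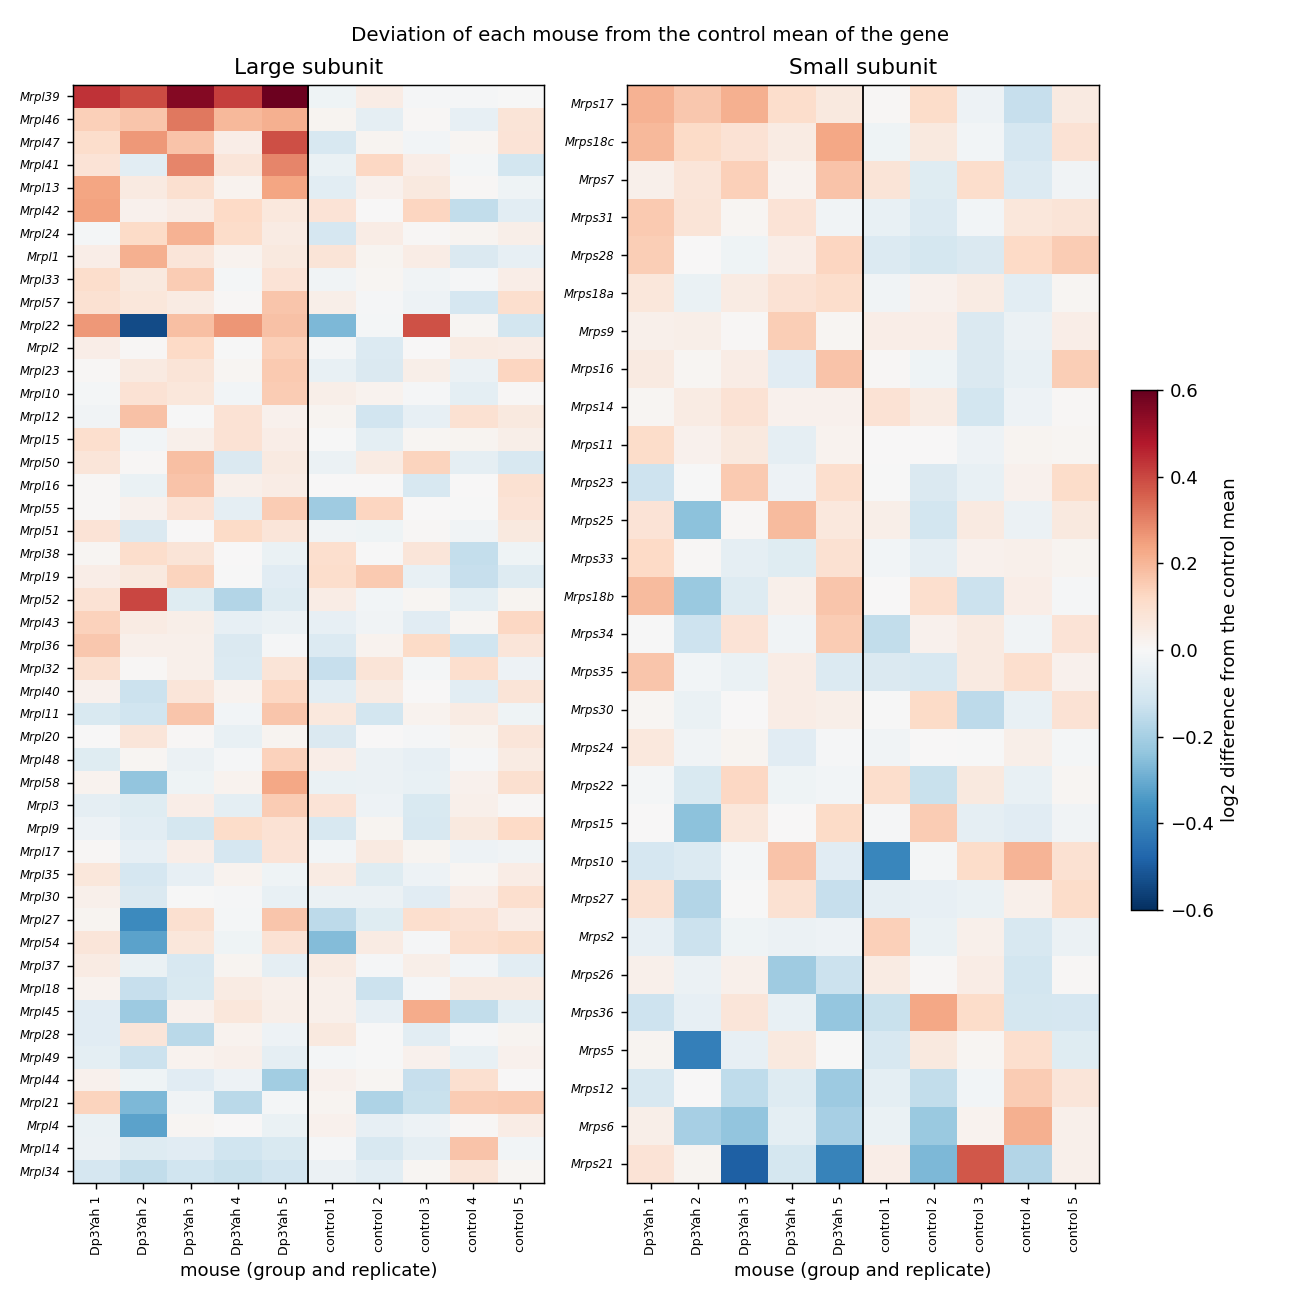
Difference of each mouse (columns, Dp3Yah then control) from the control mean of each gene (rows, ordered by log2 change), on the log2 scale with blue below and red above the control mean, for the large (left) and small (right) subunit. The row of Mrpl39 is red in all 5 Dp3Yah mice, while most other rows are pale, and single cells of Mrpl22, Mrpl52 and Mrps21 are dark in single mice.

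Grouped by origin and by place in the ribosome, with Mrps18a and Mrps30 counted in the large subunit and Mrps36 in neither, 19 of 30 bacterial-type large-subunit genes had a positive change (median 0.03), as had 14 of the 19 mitochondria-specific ones other than Mrpl39 (median 0.03). In the small subunit, 7 of 15 bacterial-type genes (median -0.004) and 8 of 11 mitochondria-specific genes (median 0.02) had a positive change. The 4 measured proteins of the stalk, which recruits translation factors, had changes of 0.05 (Mrpl10), 0.05 (Mrpl12), 0.02 (Mrpl11) and -0.02 (Mrpl54). The 4 members listed here for the central protuberance had changes of 0.21 (Mrpl46), 0.03 (Mrpl38), 0.02 (Mrpl40) and 0.007 (Mrpl48). They need not be all of its proteins, so their common sign does not describe the whole structure. Of 14 members other than Mrpl39 whose human counterparts carry disease variants, 11 had a positive change (median 0.03), and none had an unadjusted p under 0.05 in limma.

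The median SD of a member within its group was 0.081, against 0.087 for all genes. Mrpl34, Mrps11 and Mrpl39 were among the steadier members (SD 0.039, 0.043 and 0.066). Mrpl22, a protein that lines the peptide tunnel, varied most, at 7.12, 6.32, 7.04, 7.12 and 7.04 in Dp3Yah mice, against 6.59, 6.85, 7.24, 6.87 and 6.75 in control mice. Its SD of 0.29 exceeded that of 99.0% of genes, and Dp3Yah replicate 2 was lowest. Mrps21 was at 10.78, 10.71, 10.21, 10.59 and 10.30 in Dp3Yah mice, against 10.74, 10.43, 11.07, 10.52 and 10.73 in control mice, with an SD of 0.25. Mrpl52 was at 8.91 in Dp3Yah replicate 2 and between 8.33 and 8.59 in the other Dp3Yah mice, against 8.45 to 8.55 in control mice. Dp3Yah replicate 2 was the lowest Dp3Yah mouse in 31 of the 77 members.

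Subunits that do not carry an Mrp symbol were read from a separate list. All 4 that were measured had a positive change: Ptcd3 0.16, Dap3 0.10, Gadd45gip1 0.05 and Chchd1 0.05. Ptcd3 and Dap3 belong to the small subunit and had an unadjusted p under 0.05 in limma, with an adjusted p of 0.922 each (5.08% of all genes had such an unadjusted p). Ptcd3 was above every control in 4 of 5 Dp3Yah mice.

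Among 24 genes of ribosome assembly and rRNA modification, 15 had a positive change (median 0.03), 3 had an unadjusted p under 0.05 in limma (5.08% of all genes) and none was called. These were Malsu1, an assembly factor of the large subunit (log2 change 0.11), Mpv17l2, a membrane protein needed for assembly (0.15), and Noa1, a GTPase (0.08). For Noa1 all 5 Dp3Yah mice were above every control, which held for 0.522% of all genes. Of 13 translation factors, 10 had a negative change (median -0.04), and 3 had an unadjusted p under 0.05 in limma, again beside 5.08% of all genes. Mtrf1, a release factor, and Mtif2, an initiation factor, had changes of 0.24 and 0.13 (adjusted p = 0.922 each) with 4 of 5 Dp3Yah mice above every control, and Taco1, which serves translation of a cytochrome oxidase subunit, had a change of -0.12.

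Of 19 genes for mitochondrial aminoacyl-tRNA synthetases and related enzymes, which load amino acids onto tRNAs, 11 had a positive change (median 0.03). Pars2, for proline, had a change of 0.22 on the log2 scale (SE 0.065) without passing over all genes in limma (adjusted p = 0.922), and Wars2, for tryptophan, had -0.14. Of 19 genes that maintain mitochondrial DNA and RNA, 12 had a positive change (median 0.03), with Prorp, the nuclease of tRNA 5′ ends, at 0.15 (adjusted p = 0.922 in limma). None of these genes was called over all genes. The genes encoded by mitochondrial DNA, ribosomal RNAs included, were not analysed here.

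**Figure D4:**
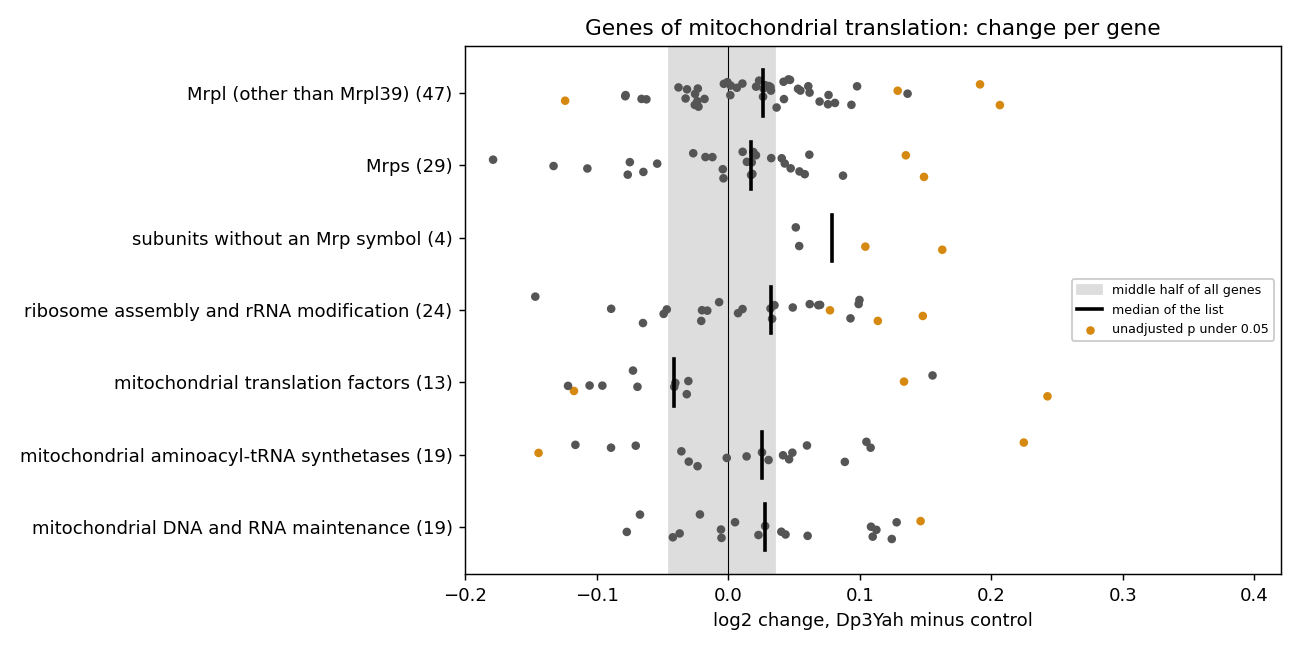
Log2 change (Dp3Yah minus control, horizontal axis) of each gene of 7 groups of mitochondrial translation genes; black bars give the median of a group, orange points an unadjusted p under 0.05 in limma, and the grey band the middle part of all genes between the lower and upper quartile (-0.05 to 0.04). The medians lie inside the band except for the 4 subunits without an Mrp symbol.

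The start regions of 68 members were searched for short motifs known from promoters of mitochondrial genes, in RefSeq windows of GRCm38.p6 of the length given above and on both strands. The ETS-type motif CCGGAAG, a core bound by factors that include Gabpa, was found in 25 of them (36.8%), against 12.9% of protein-coding genes with a window and 8.86% of all windows. The NRF1-type motif was found in 13 (19.1%, against 7.17% of protein-coding genes and 4.6% of all windows), and the YY1-type motif in 8 (11.8%, against 2.14% and 1.4%). The letters TATAAA were found in 5 members (7.35%, against 14.8% and 13.6%). In all, 40 of the 68 held at least 1 of the first 3 motifs, and no match of one of these motifs overlapped a match of another. A match is a description of letters and not a measured binding site.

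Gabpa itself lies in the duplicated interval beside Mrpl39 and had a log2 change of 0.44 (adjusted p = 0.0785 in limma). Mrpl39 was left out of the splits that follow, and none of them was tested. The 25 members with the ETS-type motif had a median log2 change of 0.007, with 15 positive, against 0.03 in the 42 without it, with 26 positive. For the NRF1-type motif, 4 of 12 members with it were positive (median -0.01), against 37 of 55 without it (0.02). For the YY1-type motif, 4 of 8 were positive (0.01), against 37 of 59 without it (0.02). The window of Mrpl39 did not hold the ETS-type motif. Of the 7 members with an unadjusted p under 0.05, Mrpl13 had no window and was not searched, Mrpl34 and Mrps18c held the motif, and they are shown because they had changes of opposite sign; capitals mark the motif, read on the reverse strand in Mrps18c.
Mrpl34, chr8:71464879-71464905, plus strand: actacagctcCCGGAAGgccccgcggc
Mrps18c, chr5:100798593-100798619, plus strand: ggtcacgtgaCTTCCGGcccgggaagc
The match begins 37 bases before the start of Mrpl34 (log2 change -0.12) and 156 bases before that of Mrps18c (0.14).

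For 5 members the probe set used is numbered among probe sets of another chromosome, although 96.8% of probe sets on this array are numbered among genes of their own chromosome. These were Mrpl27, Mrpl41, Mrpl48 and Mrpl51 of the large subunit and Mrps33 of the small subunit, and their values are uncertain because a near-identical copy of the gene could share the probes. For Mrpl41 the probe set used had a log2 change of 0.14 and the probe set numbered with its own chromosome -0.02. The corresponding values were 0.04 and -0.07 for Mrpl51, -0.02 and 0.01 for Mrpl27, and 0.02 and 0.04 for Mrps33. The probe sets of Mrpl39, Mrpl46, Mrps6 and Mrpl40 are numbered with their own chromosome.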

How the data were processed

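The authors deposited log2 values per probe set. The submitters' processing notes name RMA, limma and the mm10 build, without versions. Of 35556 probe sets, 21789 were paired with 1 gene by the platform annotation and used, while 1621 with several genes and 12146 unnamed ones were set aside. Where a gene had several probe sets, that of highest mean over the 10 arrays was taken, which mattered for 998 genes and 8 members. Of 19939 genes, 19856 were matched by identifier to RefSeq (GRCm38.p6) for symbols and positions.

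The contrast of Dp3Yah and control was fitted with limma 3.58.1 under R 4.3.3 (linear model without covariates, moderated variances, two-sided p adjusted by Benjamini-Hochberg over all genes, threshold 0.05). Single values were also tested by exact permutation over mice. The code was tested on simulated data. Members and gene lists were chosen with earlier results of these data known, so lists are described by counts and medians without a test. Named were Mrpl39, Mrps6, Mrpl46, members on chromosome 16, members with an unadjusted p under 0.05, the 4 smallest p per subunit and direction, and up to 4 genes of each other list; Gabpa and Mrps11 were added for their position, and genes that vary most or are called were named after their values were seen. Arrays have no read depth, and their number limits the precision. Promoter windows were searched in Python 3.11.15. Alternatives were the replicate number as a block, leaving out each mouse, other probe-set rules, a filter on low values, further normalisation or centring, other variance models, array weights and a rank test of all 25 pairs of mice.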

Additional observations from a re-analysis of the deposited data

Results flagged for a closer look

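In 7 of 104 groups of 5 mice, 1 mouse lay far from the other 4 by Dixon's criterion, which flags about 5% of groups by chance. The 104 groups did not cover every member, and Mrpl22 and Mrps5 were not among them. For Mrpl22, Dp3Yah replicate 2 was at 6.32 against 7.04 to 7.12 in the other Dp3Yah mice. For Mrps5, the same mouse was at 7.95 against 8.31 to 8.41. In Dp3Yah replicate 2, Gadd45gip1 was at 9.1 against 9.26 to 9.31 in the other Dp3Yah mice, Mrpl4 was at 8.21 against 8.49 to 8.54, and Mrpl54 was at 7.54 against 7.84 to 7.95. This mouse also had the lowest array weight. In Dp3Yah replicate 5, Tfb2m was at 8.15 against 7.92 to 7.97 in the other Dp3Yah mice. In control replicate 1, Mrpl24 was at 8.13 against 8.24 to 8.28 in the other controls, and Mtrf1 was at 5.8 against 6.04 to 6.11. In control replicate 4, Mrps26 was at 6.73 against 6.84 to 6.89.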

How the results depend on the processing

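Mrpl39 was called in all 10 fits that left out a mouse (log2 change 0.45 to 0.50, adjusted p 0.00387 to 0.0235) and under the 8 other limma settings (0.46 to 0.49, adjusted p 0.00125 to 0.0452), and it was the only member called in each of them. The count of genes called, 3, ranged from 1 to 4 when a mouse was left out. It was 1 when all probe sets were tested, 6 with a variance trend and robust fit, 5 with array weights and 915 by the rank test, which has its own threshold. By the rank test 5 members passed, Mrpl39, Mrpl46, Mrpl47, Mrps17 and Mrps18c, all higher in Dp3Yah (2.54% of all genes passed in that direction), and Mrpl46 passed with a rank value of 0.995. In limma, Mrpl46 had a change of 0.18 to 0.23 and an adjusted p of 0.614 to 0.999 when a mouse was left out. The labels number the mice 1 to 5 in both groups and do not say what the number marks. Deviations of same-numbered mice had correlations of 0.044, -0.364, 0.065, 0.199 and 0.315. These few values of mixed sign cannot decide whether same-numbered mice share a litter or a batch. With this number as a block, Mrpl39 had an adjusted p of 0.0452 and Mrpl46 of 0.883, and 3 genes were called. The median change was 0.0142 to 0.0312 for the other large-subunit genes and 0.0011 to 0.0265 for the small-subunit genes when a mouse was left out. The direction turned in some of these fits for Mrpl11 (-0.0154 to 0.0567), Mrpl38 (-0.0036 to 0.0579), Mrpl40 (-0.0016 to 0.0611), Mrpl48 (-0.0266 to 0.0262), Mrpl54 (-0.0883 to 0.0506) and Mrps27 (-0.0563 to 0.0113). Mrpl48 also turned with quantile normalisation (-0.0022), array weights (-0.0016) and the rank test (0.464); the cause was not tested. The alternative added after seeing the data, without the 5 members of doubtful probe sets, gave medians of 0.0268 and 0.0158. Mrps6 had a change of -0.1889 to -0.08 when a mouse was left out, the smallest without control replicate 4. Mrps21 had -0.2456 to -0.0858, with -0.0858 without control replicate 3 and -0.1008 without Dp3Yah replicate 3. Averaging the probe sets of a gene gave 0.08 for Mrpl47 and 0.06 for Mrpl41. Changes as small as those of most members cannot be told from 0 with 5 mice a group.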
